A study of Homo sapiens with 6 samples.

Results

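The comparison set A673 cells depleted of the deubiquitinase USP9X beside A673 cells depleted of FLI1, and it was read across 12008 of the 25268 gene symbols in the deposited expression table. A gene was kept if it reached an FPKM of at least 1 (sequenced fragments divided by transcript length in kilobases and by the mapped total of the library) in at least 2 of the 4 knockdown libraries. A further 15 genes that passed this filter were left out because both libraries of 1 knockdown listed them at 0. A673 is an established cell line of Ewing sarcoma, a tumour of bone and soft tissue in the young, and it was grown in serum-containing medium. Every group, the controls included, was transfected for 72 h with an esiRNA, a pool of short interfering RNAs cut from a long double-stranded RNA. The esiFLI1 pool was directed at FLI1, the esiUSP9X pool at USP9X, and the non-targeting esiGFP pool at a jellyfish gene that the cells do not have. Each group had 2 libraries, 6 in all, made from total RNA after removal of ribosomal RNA. The series title ties USP9X to the stability of the EWS-FLI1 protein, and the comparison asks how the transcripts of cells that lose USP9X differ from those of cells in which the fusion transcript itself is targeted.

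Ewing sarcoma is driven by a chromosomal fusion that joins the activation domain of EWSR1 to the DNA-binding domain of FLI1, a factor of the ETS family. The fusion protein turns GGAA repeats into enhancers and so switches on genes such as NR0B1, and it also represses a mesenchymal programme of matrix, adhesion and contractile genes. USP9X removes ubiquitin from selected proteins and so spares them from the proteasome; it acts on protein and not on RNA.

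The targeted genes were read first as a check of the labels. USP9X itself had 5.31 and 7.1 FPKM in the esiUSP9X libraries, 26.2 and 37.7 in esiFLI1 and 20.6 and 26.5 in esiGFP, and the esiUSP9X pair lay below the other 4. The difference, esiUSP9X minus esiFLI1 on the log2(FPKM + 1) scale used throughout, was -2.18 ± 0.10 (SE) with an adjusted p of 1.20e-06 (limma with the replicate number as a block, Benjamini-Hochberg adjustment over the 12008 genes) and of 0.0258 without that block. FLI1, counted together with the FLI1 part of the fusion transcript, had 12.7 and 14.1 FPKM in esiFLI1 against 25 and 31.9 in esiUSP9X and 24.1 and 36.4 in esiGFP, so that the esiFLI1 pair lay below the other 4. The FLI1 difference was 1.02 ± 0.12 (SE) with an adjusted p of 1.91e-04, and of 0.144 without the block. EWSR1, the other fusion partner, had 94.1 and 84.9 FPKM in esiFLI1, 108 and 113 in esiUSP9X and 105 and 117 in esiGFP, and its difference of 0.30 ± 0.11 (SE) was called only narrowly with the block (adjusted p = 0.0497) and not without it (adjusted p = 0.507). A sum per gene cannot separate the fusion transcript from the unrearranged copies.

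The cells carried the transcripts their label calls for. Of the 8 Ewing sarcoma markers 7 were kept, and the summed level of the list was 194 and 177 FPKM in esiFLI1, 421 and 383 in esiUSP9X and 359 and 372 in esiGFP. All 7 were called higher in esiUSP9X than in esiFLI1, against 21.1% of all genes, and 2 of them without the block. They include FLI1, the transcript that esiFLI1 targets, so its direction is no separate result. They also include EWSR1, called only narrowly, which held 94.1 and 84.9 FPKM of the esiFLI1 sums. The remaining marker, CD99, was listed at 0 in all 6 libraries, as were some abundant genes in single groups, so that a listed 0 cannot be read as absence. Of 12 endothelial markers 2 were kept (KDR, EMCN), with list sums of 31.1 and 52.3 FPKM in esiFLI1, 17.1 and 25 in esiUSP9X and 20.1 and 23.3 in esiGFP. The defining endothelial genes PECAM1 and CDH5 reached at most 0.169 and 0.0571 FPKM. Of 14 epithelial markers only KRT8 and KRT18 were kept, with list sums between 143 and 246 FPKM in the 6 libraries, and of 12 leukocyte markers only CD68 was kept, with list sums between 2.00 and 8.40 FPKM. CDH1, KRT5, KRT14, OVOL1 and GRHL2 of the epithelial list and CD3E, CD3D, MS4A1 and TYROBP of the leukocyte list were at 0 in all 6 libraries. The part of cells bearing these markers in the results was not tested. Read depth is unknown, because the table holds no counts, and 1 entry, MIR6723, took between 33.2% and 50.9% of the FPKM sum of a library. In both knockdowns and the control its share was larger in replicate 2 than in replicate 1.

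Knockdown of USP9X and knockdown of FLI1 left A673 cells with different transcript levels at 5151 genes. Of the 12008 genes 2536 (21.1%) were higher and 2615 (21.8%) lower in esiUSP9X than in esiFLI1. The lower side held the larger differences, since 639 genes (5.32%) were at least 2-fold lower and 165 (1.37%) at least 2-fold higher. At 4-fold and above there were 134 lower and 13 higher genes, and 7 of those 13 were small nucleolar or micro RNAs. All 5151 called genes had the same sign in both replicate pairs. The paired fit hardly calls a gene whose pairs disagree, so this agreement adds no support. In 3604 of the called genes both libraries of one group lay above both of the other. Over all kept genes 4734 were separated in this way. The median difference over all genes was 0.02, and the median size of a called difference was 0.55. For 6730 genes (56.0%) the 95% interval of the difference lay within 1.5-fold.

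These counts rest on the pairing by replicate number. Without the replicate block 43 genes (0.358%) were higher and 323 (2.69%) lower, all 366 of them also called with it. When the libraries were rescaled to their FPKM sum without MIR6723, 1770 genes were higher and 3148 lower, so that 36.0% of the calls were higher instead of 49.2%. List medians near 0 are therefore given no direction. Of the kept genes 361 reached 1 FPKM in both esiFLI1 libraries and in neither esiUSP9X library, and 85 the reverse, so such genes entered through the group where they are high and had to differ. Among the genes named in the text, CD44, CNN1, COL6A3, COL11A1, DKK3, DRAXIN, HSPB8, HTRA1, IGFBP7, ITGA3, ITGA8, KDR, L1CAM, LAMA4, MAP2, MGP, NDRG1 and NUPR1 entered only through esiFLI1, and ARRDC4, CCK, RNF125 and SCNN1G only through esiUSP9X. The calls of these genes are given as values and not as support, and list counts are repeated without such members where they changed the count by more than 1. The labels do not say that replicates came from separate cultures, so the p-values cover no more than the spread among the 6 libraries.

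**Figure D1:**
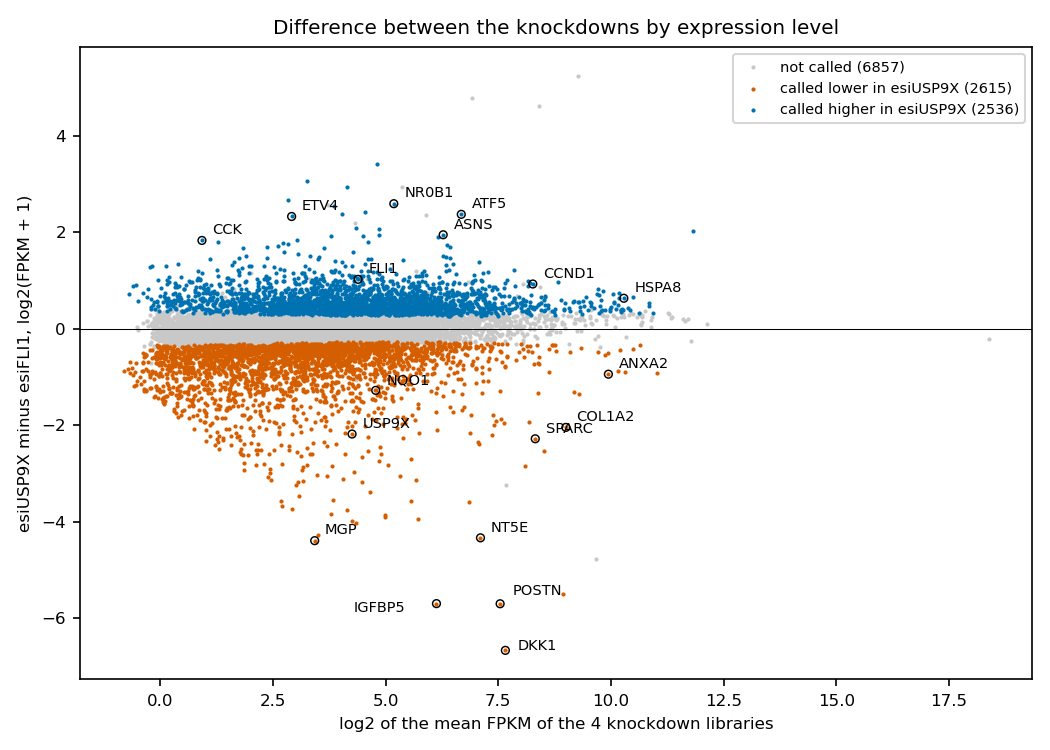
Difference between esiUSP9X and esiFLI1 on the log2(FPKM + 1) scale (vertical axis) against the log2 of the mean FPKM of the 4 knockdown libraries (horizontal axis), 1 point per kept gene. Blue points are the 2536 genes called higher in esiUSP9X, orange points the 2615 called lower, grey points the rest, and some genes are circled and named. The lower side reaches further, to -6.67 for DKK1.

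**Figure D2:**
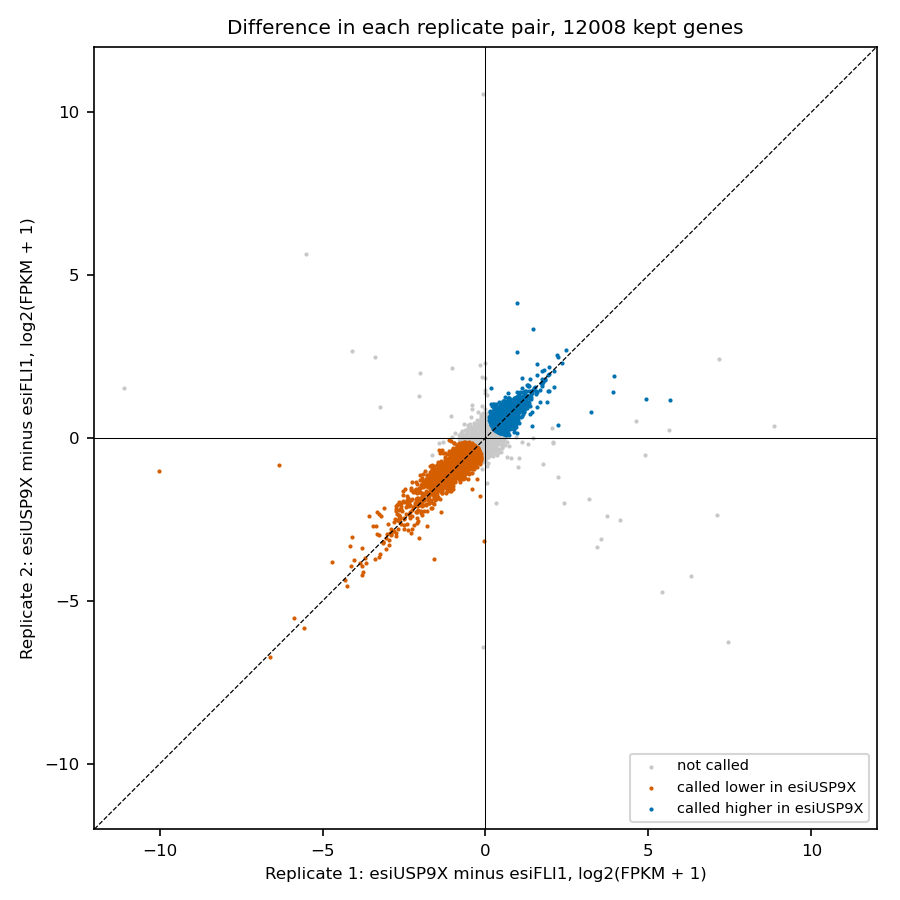
Difference in the replicate 1 pair (horizontal axis) against that in the replicate 2 pair (vertical axis), both on the log2(FPKM + 1) scale, for the kept genes, with the line of equality dashed. Every called gene lies to the upper right or the lower left of the origin, which the paired fit largely sets. The points far off the line are grey apart from a few.

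The promoters of the 2 genes with the largest difference in each direction, among the genes eligible to be named, are printed below. They run from 250 bases before to 50 after the start (RefSeq, GRCh38.p14, gene strand, 5′ to 3′). Whether the differences arise at these promoters was not tested. Capitals mark any match, on either strand, to the motifs GGAAGGAA (a tandem of the ETS core), CATTCC (TEAD factors), TGACTCA (AP-1) or TGATGCAA (ATF4 with C/EBP). GGAATG, which is CATTCC read on the other strand, can share the letters GGAA with GGAAGGAA. NR0B1 lies at chrX:30309341-30309640 (minus strand), ATF5 at chr19:49928656-49928955 (plus strand), DKK1 at chr10:52314031-52314330 (plus strand) and POSTN at chr13:37598719-37599018 (minus strand).
NR0B1: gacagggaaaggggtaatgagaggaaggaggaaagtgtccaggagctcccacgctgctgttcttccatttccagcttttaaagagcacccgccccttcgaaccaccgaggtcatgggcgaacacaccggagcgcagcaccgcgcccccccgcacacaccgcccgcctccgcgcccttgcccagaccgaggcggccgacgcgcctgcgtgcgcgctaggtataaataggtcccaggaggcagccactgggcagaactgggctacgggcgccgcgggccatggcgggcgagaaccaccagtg
ATF5: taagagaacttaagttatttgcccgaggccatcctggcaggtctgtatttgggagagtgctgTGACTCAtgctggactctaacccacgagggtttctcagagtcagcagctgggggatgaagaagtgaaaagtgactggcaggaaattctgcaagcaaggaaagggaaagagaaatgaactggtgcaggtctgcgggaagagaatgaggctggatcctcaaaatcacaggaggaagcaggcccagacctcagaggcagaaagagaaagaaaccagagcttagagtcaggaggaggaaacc
DKK1: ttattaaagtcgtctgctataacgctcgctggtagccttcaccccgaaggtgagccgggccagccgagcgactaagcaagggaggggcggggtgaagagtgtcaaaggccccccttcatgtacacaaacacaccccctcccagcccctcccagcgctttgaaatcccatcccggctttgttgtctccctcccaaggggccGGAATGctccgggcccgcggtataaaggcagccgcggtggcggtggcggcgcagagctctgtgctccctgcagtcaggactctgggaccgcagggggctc
POSTN: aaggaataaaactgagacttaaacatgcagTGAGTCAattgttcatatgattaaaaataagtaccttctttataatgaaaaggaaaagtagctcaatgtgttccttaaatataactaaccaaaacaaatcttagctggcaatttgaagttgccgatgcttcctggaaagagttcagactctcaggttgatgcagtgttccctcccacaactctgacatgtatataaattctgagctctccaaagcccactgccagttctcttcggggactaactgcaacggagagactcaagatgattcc
ATF5 and POSTN each hold 1 AP-1 match, DKK1 holds 1 CATTCC match read on the other strand, and the NR0B1 window holds none of the 4 motifs. The table gave a promoter for 9691 of the kept genes (80.7%). The AP-1 letters stood in 30 of 483 promoters (6.21%) of genes at least 2-fold lower in esiUSP9X, in 5 of 117 (4.27%) of those at least 2-fold higher, in 2.80% of all kept genes' promoters and in 4.92% of all 27305 promoters. The tandem ETS core stood in 4.76% of the 2-fold lower, 1.71% of the 2-fold higher and 3.25% of the kept genes' promoters. A match is a description of letters and shows no binding.

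The genes that EWS-FLI1 is known to switch on were mostly higher after USP9X knockdown than after FLI1 knockdown. Of the 39 kept genes of a list of 40, 31 were higher (79.5% against 21.1% of all genes), 1 was lower and 7 were not called, with a median difference of 0.73. NR0B1, an orphan nuclear receptor, had 14.3 and 5.46 FPKM in esiFLI1, 84.2 and 41.1 in esiUSP9X and 61.4 and 27.6 in esiGFP. Both esiFLI1 libraries lay below the other 4. Its difference of 2.59 ± 0.10 (SE) was the largest on the higher side among the genes eligible to be named (limma adjusted p = 5.00e-07), but without the block the adjusted p was 0.122. PPP1R1A, an inhibitor of protein phosphatase 1, had 6.07 and 3.31 FPKM in esiFLI1, 32.3 and 23.3 in esiUSP9X and 23 and 18.5 in esiGFP, a difference of 2.37 ± 0.12 (SE). LBH, a transcriptional cofactor, had 15 and 8.13 in esiFLI1 against 55.2 and 37.7 in esiUSP9X, a difference of 1.95 ± 0.14 (SE). In neither gene did the 2 knockdowns overlap.

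FEZF1, a zinc finger factor of the developing forebrain, had 5.56 and 4.73 FPKM in esiFLI1, 23.9 and 20.9 in esiUSP9X and 18.5 and 20.6 in esiGFP, a difference of 1.93 ± 0.12 (SE) that was called with and without the block (adjusted p 4.41e-06 and 0.0157). NPY1R, a receptor for neuropeptide Y, had 36.4 and 43.5 FPKM in esiFLI1, 125 and 138 in esiUSP9X and 94.9 and 109 in esiGFP. STEAP1, a cell-surface metalloreductase, had 39.7 and 40.5 FPKM in esiFLI1 and 119 and 112 in esiUSP9X (difference 1.5 ± 0.10 (SE)). CCK, a neuropeptide, was low in all libraries, at 0.165 and 0.377 FPKM in esiFLI1, 3.99 and 3.06 in esiUSP9X and 3.57 and 2.44 in esiGFP, and it entered the kept genes only through esiUSP9X. MYOM2, a sarcomere protein, had 3.08 and 2.34 in esiFLI1 and 11.3 and 11.6 in esiUSP9X. In all 5 genes the knockdowns were separated. CCND1, which drives cells through G1, was the most abundant of those described here, at 220.0 and 204 FPKM in esiFLI1, 413 and 394 in esiUSP9X and 472 and 459 in esiGFP (difference 0.93 ± 0.10 (SE)). The member that went the other way, named after its values were seen, was CALCB, with a difference of -0.32. Without the replicate block 7 of the 31 were called.

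Genes that the fusion is known to hold down were lower in esiUSP9X than in esiFLI1, with the largest differences of the comparison. Of 21 kept genes of 26, 19 were lower (90.5% against 21.8% of all genes), 1 was higher and 1 was not called, and the median difference was -2.84. DKK1, a secreted inhibitor of Wnt signalling, had 334 and 467 FPKM in esiFLI1, 2.45 and 3.4 in esiUSP9X and 4.23 and 2.38 in esiGFP. The esiUSP9X and esiGFP levels overlapped, and both esiFLI1 libraries lay far above them. The difference was -6.67 ± 0.22 (SE), with an adjusted p of 2.17e-07 with the block and 0.0068 without it (limma). POSTN, the matrix protein periostin, had 252 and 481 FPKM in esiFLI1, 4.35 and 7.42 in esiUSP9X and 3.59 and 12.7 in esiGFP, a difference of -5.7 ± 0.18 (SE). IGFBP5, which binds insulin-like growth factors, had 161 and 115 in esiFLI1, 1.78 and 1.52 in esiUSP9X and 1.83 and 0.932 in esiGFP, a difference of -5.7 ± 0.13 (SE). For both genes, too, esiUSP9X stood near esiGFP.

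NT5E, the ecto-enzyme CD73 that makes adenosine outside the cell, had 231 and 295 FPKM in esiFLI1, 10.6 and 13.5 in esiUSP9X and 24.1 and 20.3 in esiGFP. Here the esiUSP9X pair also lay below the esiGFP pair. LOX, the enzyme that crosslinks collagen and elastin, had 76.8 and 123 FPKM in esiFLI1, 4.77 and 6.17 in esiUSP9X and 3.02 and 4.27 in esiGFP, so that esiUSP9X lay above esiGFP and far below esiFLI1. SPRY1, a feedback inhibitor of receptor tyrosine kinases, had 63.2 and 56.6 in esiFLI1 against 3.69 and 2.75 in esiUSP9X, a difference of -3.86 ± 0.11 (SE). LOXL2, a relative of LOX, had 74.9 and 45.8 in esiFLI1 against 3.63 and 2.48 in esiUSP9X, a difference of -3.89 ± 0.16 (SE). CD44, the hyaluronan receptor, was kept only through esiFLI1, at 4.51 and 4.99 FPKM there and 0.0751 and 0.185 in esiUSP9X. The 2 members without a lower call were CDKN1A, a cell cycle inhibitor, at 0.42 (higher), and ZYX, a focal adhesion protein, at -0.04. Without the block 15 of the 19 were still called.

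**Figure D3:**
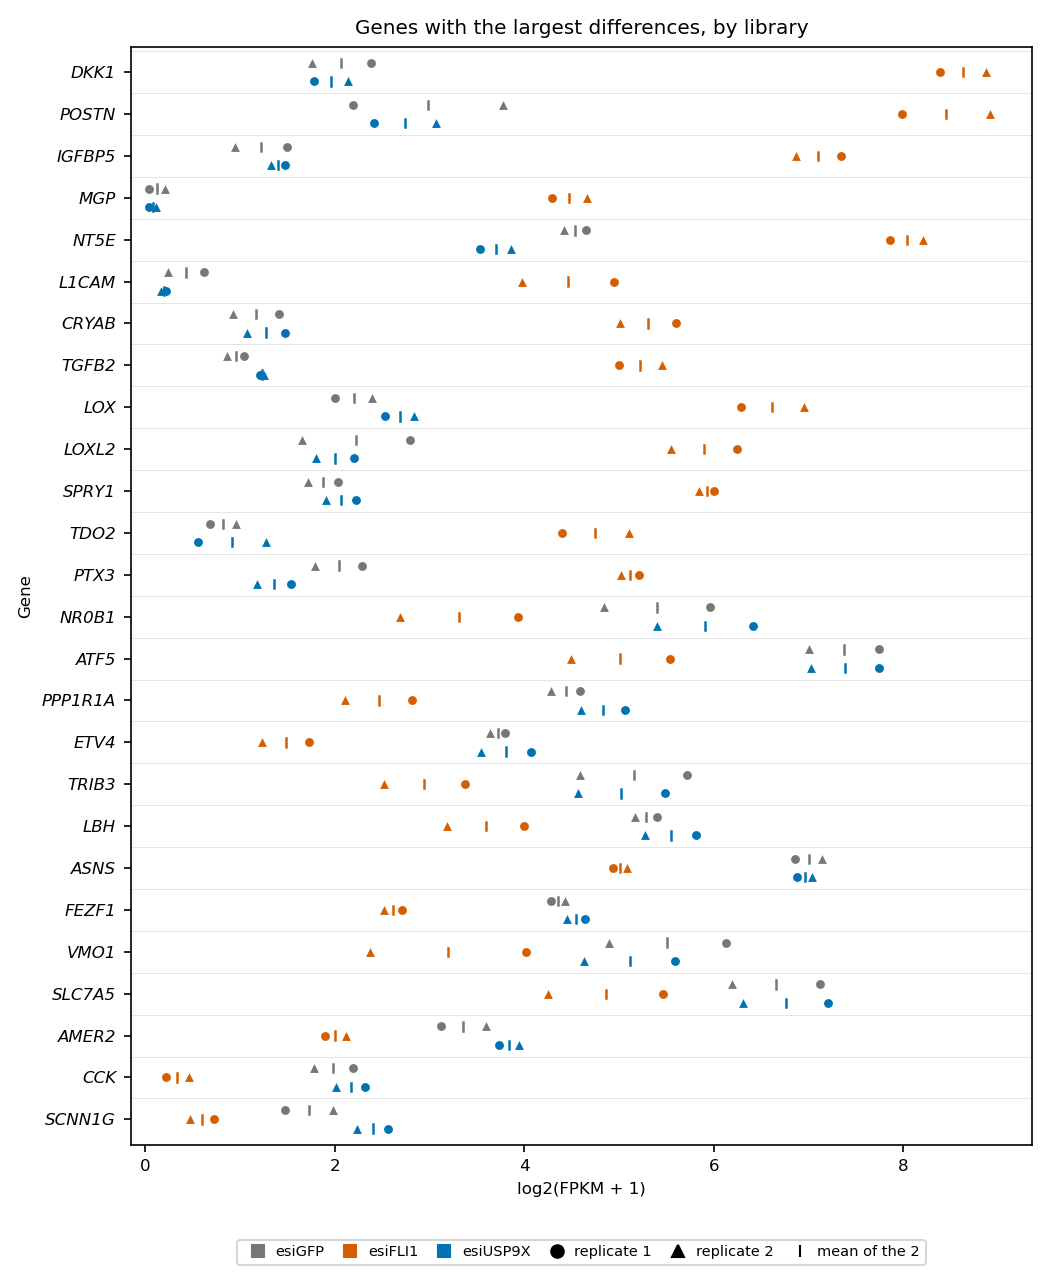
Level in log2(FPKM + 1) of the 13 genes with the largest lower and the 13 with the largest higher difference among those eligible to be named, with 1 circle (replicate 1) and 1 triangle (replicate 2) per library and a tick at the mean of the 2. The esiFLI1 points (orange) stand apart from the esiUSP9X points (blue) in every row, while the esiGFP points (grey) mostly lie near the blue ones.

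Across the largest differences the control libraries lay with esiUSP9X. The mean of the esiGFP libraries was nearer to the esiUSP9X mean than to the esiFLI1 mean for 157 of the 165 genes at least 2-fold higher and for 619 of the 639 at least 2-fold lower. The position of the control group was described and not tested. It was not counted for the other kept genes, so it cannot be called particular to the large differences.

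Genes with esiUSP9X libraries outside the other 4 and an esiGFP mean nearer to esiFLI1 than to esiUSP9X were described as well. They were chosen for that after their values were seen. Genes at 0 in a knockdown library and small, antisense and uncharacterised RNAs were left out. Of the 2536 genes called higher, 91 met these terms, with both esiUSP9X libraries above all libraries of the other groups. Of the 2615 called lower, 81 had both below. How many of all kept genes lay outside in this way, called or not, was not counted. The largest lower difference among these genes was that of USP9X. Other genes, NT5E, PTX3, L1CAM and ITGA4 among them, also had both esiUSP9X libraries lowest, with larger differences. The esiGFP means of these other genes lay nearer to esiUSP9X. NQO1, a quinone reductase, had 15.7 and 15.5 FPKM in esiUSP9X against 41.3 and 37.3 in esiFLI1 and 33.7 and 33.1 in esiGFP (difference -1.28 ± 0.10 (SE)). MCAM, an adhesion molecule, had 5.66 and 4.05 in esiUSP9X, 24.2 and 15.8 in esiFLI1 and 12.6 and 7.96 in esiGFP. DRAXIN, a secreted axon guidance protein, had 0.548 and 0.365 in esiUSP9X, 5.34 and 3.31 in esiFLI1 and 3.22 and 1.84 in esiGFP. For MCAM and DRAXIN the order was esiUSP9X below esiGFP below esiFLI1.

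On the higher side TXNIP, which restrains glucose uptake and binds thioredoxin, had 15.2 and 15.9 FPKM in esiUSP9X, 7.38 and 7.8 in esiFLI1 and 6.53 and 5.89 in esiGFP (difference 0.94 ± 0.11 (SE)). The esiFLI1 and esiGFP libraries lay close together here. MMP1, the interstitial collagenase, had 384 and 387 in esiUSP9X, 199 and 199 in esiFLI1 and 303 and 197 in esiGFP. LCP1, an actin-bundling protein, had 15.8 and 16.2 in esiUSP9X, 8.29 and 8.13 in esiFLI1 and 7.47 and 6.49 in esiGFP. ISL1, a LIM homeobox factor of motor neurons, had 7.53 and 7.55 in esiUSP9X, 3.47 and 2.8 in esiFLI1 and 4.22 and 5.49 in esiGFP. RNF125, a ubiquitin ligase, was low throughout, at 2.01 and 1.95 in esiUSP9X, 0.198 and 0.23 in esiFLI1 and 0.911 and 0.669 in esiGFP. RNF125 entered the kept genes only through esiUSP9X and DRAXIN only through esiFLI1. Since these genes were picked for their separation, their calls do not add to it, and without the block TXNIP, MMP1, LCP1, ISL1 and MCAM were not called (adjusted p 0.0679, 0.136, 0.0827, 0.073 and 0.0617).

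**Figure D4:**
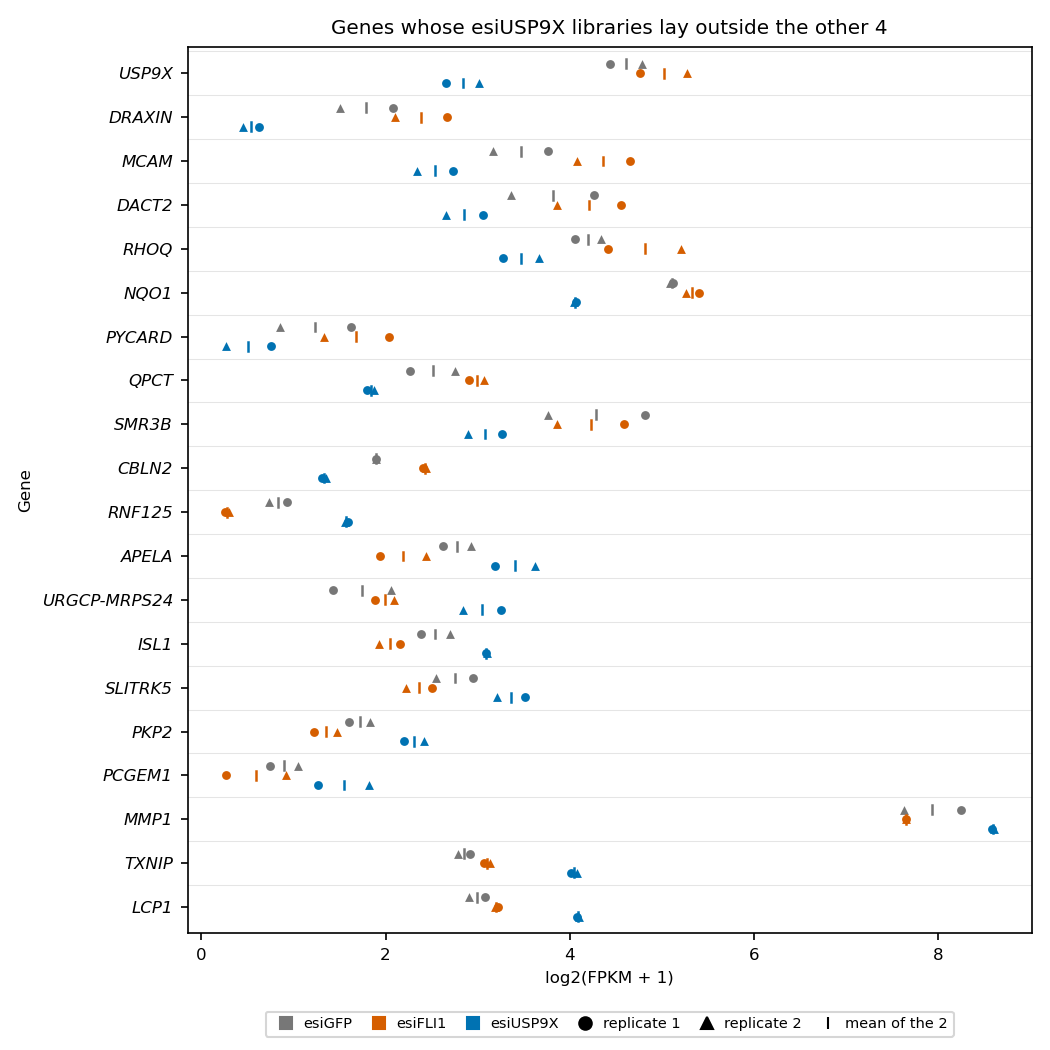
Level in log2(FPKM + 1) of called genes whose esiUSP9X libraries (blue) both lay below or above the esiFLI1 (orange) and esiGFP (grey) libraries. Only genes with an esiGFP mean nearer to esiFLI1 than to esiUSP9X were eligible, under the further limits given in the text. The 10 with the largest difference per direction are shown, lower ones in the upper 10 rows and higher ones in the lower 10 rows. Circles are replicate 1, triangles replicate 2 and ticks the mean of the 2; the separation is how the genes were picked.

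Of 14 kept ETS factors of 23, 4 were higher and 2 lower, shares of 28.6% and 14.3% beside 21.1% and 21.8% of all genes. ETV4 had 2.31 and 1.36 FPKM in esiFLI1, 15.8 and 10.7 in esiUSP9X and 12.9 and 11.5 in esiGFP, with a difference of 2.33 ± 0.12 (SE) and adjusted p values of 2.06e-06 with the block and 0.0234 without (limma). ETV5 had 9.67 and 7.66 in esiFLI1 against 25.8 and 22.5 in esiUSP9X, ETS2 had 2.09 and 2.02 against 6.14 and 5.4, and ETV1 differed by 0.61. The esiFLI1 libraries were the lowest of the 6 for ETV4, ETV5 and ETS2. The lower members were ETV6, at -0.44, and ELF4, at -0.51, and the list's median was -0.08. Without the block the higher calls for ETV4, ETV5 and ETS2 stood.

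Feedback regulators of MAPK signalling and immediate early genes went both ways, with 7 higher, 7 lower and 9 not called of 23 kept of 27 (shares of 30.4% and 30.4% beside 21.1% and 21.8% of all genes). EGR1, an early response factor, had 6.49 and 4.22 FPKM in esiFLI1 and 24.1 and 14.9 in esiUSP9X, a difference of 1.68 ± 0.10 (SE). SPRY2, a relative of SPRY1, had 17.4 and 14.1 in esiFLI1 and 4.23 and 4.52 in esiUSP9X, a difference of -1.63 ± 0.12 (SE). PHLDA1 differed by -2.84 and FOSL2, an AP-1 subunit, by -1.34. The list's median of 0.06 turned negative when libraries were rescaled without MIR6723.

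**Figure D5:**
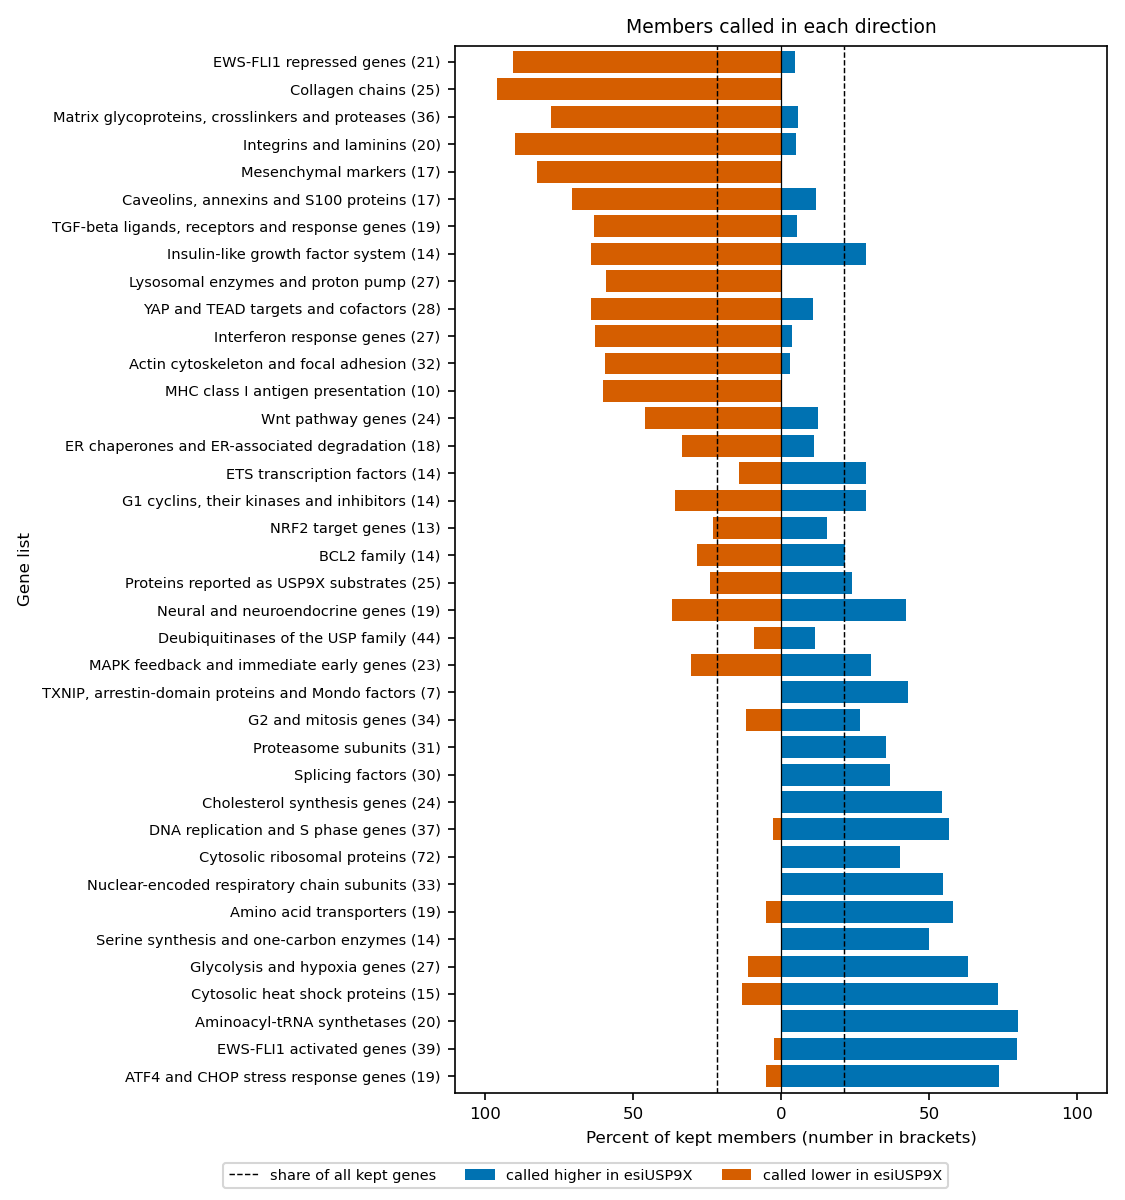
Percent of the kept members of each gene list (vertical axis, number kept in brackets) that were called higher (blue, to the right) or lower (orange, to the left) in esiUSP9X than in esiFLI1, ordered by the list's median difference. Dashed lines mark the shares over all kept genes, 21.1% higher and 21.8% lower; the collagen, EWS-FLI1 repressed and integrin lists reach furthest to the left and the tRNA synthetase and EWS-FLI1 activated lists furthest to the right.

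Collagen transcripts were lower in esiUSP9X nearly throughout. Of 25 kept chains of 37, 24 were lower (96% against 21.8% of all genes) and none was higher. The one not called was COL27A1, at 0.07. The median difference was -1.81, and 21 chains were at least 2-fold lower. Without the 6 chains that entered only through esiFLI1, 18 of 19 were lower, with a median of -1.64. COL11A1, a chain of cartilage fibrils, had 13 and 12.9 FPKM in esiFLI1, 0.0845 and 0.0822 in esiUSP9X and 0.0619 and 0.068 in esiGFP, and it was kept only through esiFLI1. COL1A1, a main chain of bone and skin collagen, had 313 and 117 in esiFLI1, 22 and 10.2 in esiUSP9X and 29.6 and 8.99 in esiGFP, a difference of -3.58 ± 0.14 (SE) whose adjusted p was 0.0886 without the block. COL6A3 had 7.11 and 6.12 in esiFLI1 and 0.279 and 0.25 in esiUSP9X, and COL12A1 had 25.7 and 32.5 against 5.44 and 7.13. COL4A1, a basement membrane chain, had 77.9 and 59.9 FPKM in esiFLI1, 19.7 and 16.3 in esiUSP9X and 21.7 and 15.3 in esiGFP. In none of these chains did the knockdowns overlap, and 10 of the 24 were called without the block.

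Other matrix proteins and the enzymes that build or cut the matrix followed the same side. Of 36 kept of 45, 28 were lower (77.8% against 21.8% of all genes), 2 higher and 6 not called, with a median of -1.77. Without the 5 members that entered only through esiFLI1, 23 of 31 were lower, with a median of -1.64. MGP, an inhibitor of calcification, had 18.6 and 24.3 FPKM in esiFLI1 and 0.0309 and 0.0869 in esiUSP9X, so that it entered only through esiFLI1. MMP2, a gelatinase, had 117 and 68.1 in esiFLI1, 11.3 and 7.7 in esiUSP9X and 12.3 and 7.92 in esiGFP. FBN1, the microfibril protein fibrillin, had 69.2 and 75.8 in esiFLI1, 7.55 and 8.11 in esiUSP9X and 7.74 and 6.95 in esiGFP. The MMP2 and FBN1 levels of esiUSP9X and esiGFP overlapped, and those of esiFLI1 stood above both. The 2 higher members were TIMP3, a protease inhibitor, at 0.52, and ADAMTS1, a protease, at 1.09. Without the block 17 of the 28 lower genes were called. FN1, fibronectin, was not among the genes compared, since it was listed at 0 in both esiFLI1 and both esiGFP libraries.

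Integrin and laminin subunits are the receptors for the matrix and the trimers of the basement membrane. Of 20 kept of 30, 18 were lower (90% against 21.8% of all genes) and 1 higher, with a median of -1.06. Without the 5 subunits that entered only through esiFLI1, 13 of 15 were lower, with a median of -1.01. ITGA4 had 37.9 and 55.9 FPKM in esiFLI1, 3.15 and 3.83 in esiUSP9X and 4.38 and 4.97 in esiGFP, a difference of -3.39 ± 0.12 (SE). ITGA3 differed by -2.22, ITGA1 by -2.14, ITGA8 by -1.99 and LAMA4 by -2.49. ITGA3, ITGA8 and LAMA4 were under 1 FPKM in both esiUSP9X libraries. The higher member was LAMA3, at 0.51, and 7 of the 18 lower ones were called without the block.

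Contractile and actin-binding genes were lower for 19 of 32 kept of 33 (59.4% against 21.8% of all genes). Of the others 12 were not called, and the median was -0.44. TPM1, a tropomyosin, had 243 and 213 FPKM in esiFLI1, 44.3 and 41.2 in esiUSP9X and 37.7 and 35.5 in esiGFP. CALD1, caldesmon, had 193 and 323 in esiFLI1, 60.6 and 85.9 in esiUSP9X and 59.7 and 73.6 in esiGFP. TAGLN, a smooth muscle actin-binding protein, had 94.4 and 45.7 in esiFLI1 and 16.7 and 9.76 in esiUSP9X. VCL, vinculin of focal adhesions, differed by -1.34 ± 0.10 (SE) and CNN1, calponin, by -1.73 ± 0.12 (SE). The esiUSP9X levels lay near esiGFP for TPM1 and CALD1. The higher member was VASP, an actin polymerisation factor, at 0.63; without the block 4 of the 19 were called, and TAGLN (adjusted p 0.0687) and CALD1 (0.0622) were not among them.

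YAP is a growth regulator that acts through TEAD factors when cells are stretched or spread. Of 28 kept targets and cofactors of 29, 18 were lower (64.3% against 21.8% of all genes), 3 higher and 7 not called. The list's median was -0.57. TGFB2, a transforming growth factor ligand, had 30.9 and 42.8 FPKM in esiFLI1, 1.32 and 1.39 in esiUSP9X and 1.06 and 0.828 in esiGFP, a difference of -3.99 ± 0.15 (SE). ANKRD1, a nuclear cofactor, had 22.7 and 31 in esiFLI1, 1.28 and 1.46 in esiUSP9X and 0.892 and 0.595 in esiGFP, a difference of -3.54 ± 0.16 (SE). CYR61, a secreted matricellular protein, had 68.1 and 55.4 in esiFLI1, 15.7 and 12.5 in esiUSP9X and 16.5 and 13.9 in esiGFP. In these genes esiUSP9X lay at or near the control level. AXL, a receptor tyrosine kinase, differed by -2.56 ± 0.14 (SE). The higher members, named after their values were seen, were TEAD4 at 0.81, AMOTL2 at 0.51 and FJX1 at 0.40, while YAP1 itself differed by -0.22 and was not called. Without the block 8 of the 18 stood.

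CATTCC, the letters TEAD factors bind, stood in 7 of the 22 YAP-list promoters in the table (31.8%), against 10.6% of the kept genes' and 14.05% of all promoters. Of those 7, 4 belonged to members called lower in esiUSP9X and the rest, which are not printed, to members not called lower. The printed stretches hold each match in 4 members that were lower in esiUSP9X, with the motif or its reverse complement GGAATG in capitals (RefSeq, GRCh38.p14, gene strand), because this list was built on that factor. They lie at chr6:131951452-131951552 (minus strand) for CTGF, listed there as CCN2, at chr10:90921200-90921318 (minus strand), at chr13:21061561-21061587 (minus strand) and at chr1:218345140-218345166 (plus strand).
CTGF: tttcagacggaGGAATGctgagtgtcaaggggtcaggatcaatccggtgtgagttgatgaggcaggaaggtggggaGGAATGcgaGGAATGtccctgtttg
ANKRD1: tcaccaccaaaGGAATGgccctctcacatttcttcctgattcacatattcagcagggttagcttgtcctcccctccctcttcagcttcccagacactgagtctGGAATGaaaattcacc
LATS2: tgacgcccgtGGAATGccaacaatgta
TGFB2: gtcagggcgcaCATTCCacctccttcc
CTGF, a secreted relative of CYR61 with 3 matches, had 35.9 and 35.8 FPKM in esiFLI1, 20.5 and 18.5 in esiUSP9X and 28.5 and 27.2 in esiGFP (difference -0.85 ± 0.10 (SE)). LATS2, a kinase that restrains YAP, with 1 match, had 16.8 and 17 in esiFLI1 and 11.8 and 11.3 in esiUSP9X (difference -0.52 ± 0.10 (SE)). ANKRD1 with 2 matches and TGFB2 with 1 had the larger differences given above. The number of matches did not order the differences.

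TGF-beta ligands, receptors and response genes had 12 lower and 1 higher of 19 kept of 20, with a median of -0.73. The lower share was 63.2% against 21.8% of all genes. TGFBI, a matrix protein named for its induction by the ligand, had 739 and 517 FPKM in esiFLI1, 119 and 93.6 in esiUSP9X and 168 and 111 in esiGFP. TGFBR2, the receptor subunit that binds the ligand, had 51.1 and 56.4 in esiFLI1, 18.2 and 18.5 in esiUSP9X and 14.3 and 14.2 in esiGFP. Its esiUSP9X libraries stood between the other groups. The higher member was BAMBI, a decoy receptor, at 0.70, and 7 of the 12 lower genes were called without the block.

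Of 17 kept mesenchymal surface and transcription markers of 19, 14 were lower (82.4% against 21.8% of all genes) and none higher (median -0.89). Without the 3 that entered only through esiFLI1, 11 of 14 were lower (median -0.77). CDH2, N-cadherin, had 111 and 105 FPKM in esiFLI1, 32.1 and 31.4 in esiUSP9X and 27.5 and 27.1 in esiGFP, and PDGFRB, a growth factor receptor of mesenchymal cells, had 54.9 and 31.5, 18.4 and 12.6 and 18.4 and 11.6. Caveolins, annexins and S100 proteins had 12 lower of 17 kept of 19 (70.6% against 21.8% of all genes, median -0.78). Without the 2 that entered only through esiFLI1, 10 of 15 were lower. The 2 higher members were CAV1 at 0.82 and CAV2 at 1.1, the coat proteins of caveolae. S100A4, a calcium-binding protein of motile cells, had 299 and 150.3 in esiFLI1, 48.5 and 34.7 in esiUSP9X and 43.4 and 33.4 in esiGFP. S100A13 had 145 and 133 in esiFLI1, 43.3 and 39.2 in esiUSP9X and 57.4 and 49.8 in esiGFP. S100A4 overlapped between esiUSP9X and esiGFP, and S100A13 was lower in esiUSP9X than in either other group. Without the block 6 mesenchymal markers and 5 of the caveolin, annexin and S100 list were lower.

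The insulin-like growth factor system, on which Ewing cells depend, went both ways, with 9 lower, 4 higher and 1 not called of 14 kept of 18 (median -0.66). Shares were 64.3% lower and 28.6% higher, beside 21.8% and 21.1% of all genes. All 5 kept binding proteins were lower. IGFBP7 had 17.4 and 8.2 FPKM in esiFLI1 and 0.0756 and 0.124 in esiUSP9X, and IGFBP4 had 26.2 and 8.75 and 3.68 and 2.19. IGFBP2, the most abundant, had 1363 and 478 in esiFLI1, 445 and 223 in esiUSP9X and 595 and 231 in esiGFP, and its adjusted p without the block was 0.472. The libraries of each group differed widely in IGFBP2, and the lower esiFLI1 value stood only just above the higher esiUSP9X value. IGF1R, the receptor, differed by -0.43 and IRS1, its adaptor, by -0.80. The higher members were the ligand IGF1 at 0.44, the adaptor IRS2 at 0.79, the binding-protein protease PAPPA at 0.38 and its inhibitor STC2 at 0.88. Without the block 2 members were called, both lower.

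Wnt pathway genes were lower for 11 and higher for 3 of 24 kept of 36 (median -0.22). They were lower for 9 of 22 without the 2 that entered only through esiFLI1. The 11 and 3 were shares of 45.8% and 12.5%, beside 21.8% lower and 21.1% higher of all genes. Beside DKK1, DKK3 had 12.8 and 8.69 FPKM in esiFLI1 and 0.361 and 0.262 in esiUSP9X, and FRZB, a secreted Wnt antagonist, had 17.5 and 14 and 6.55 and 5.52. LGR5, a receptor that strengthens Wnt signals, had 31.8 and 30.2 in esiFLI1, 7.48 and 6.32 in esiUSP9X and 10.9 and 6.64 in esiGFP, and its relative LGR4 differed by -1.45. These inhibitors and receptors all lay on the lower side. The higher members were DKK2 at 0.52, AXIN1 at 0.44 and FZD1 at 0.39, and CTNNB1 (beta-catenin), at -0.19, was not called. Without the block 4 were lower.

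Neural and neuroendocrine genes did not move together, with 8 higher and 7 lower of 19 kept of 27 and a median of 0.05. Both shares, 42.1% and 36.8%, lay above the 21.1% and 21.8% of all genes. SOX1, a factor of neural progenitors, had 1.35 and 1.29 FPKM in esiFLI1, 5.44 and 5.38 in esiUSP9X and 5.6 and 6.03 in esiGFP. MAP2, a dendrite microtubule protein, had 2.71 and 3.86 in esiFLI1 and 0.241 and 0.206 in esiUSP9X. SCG2, a secretory granule protein, had 21.5 and 30.6 and 7.86 and 8.9, and NEFL, a neurofilament, had 10.3 and 10.7 and 3.05 and 3.8. SOX1 stood at the control level in esiUSP9X and lowest in esiFLI1, and the other 3 stood highest in esiFLI1. Without the block 3 were higher and 3 lower.

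Genes of the ATF4 response, which cells switch on when amino acids run short or the endoplasmic reticulum is stressed, were higher in esiUSP9X than in esiFLI1 for 14 of 19 kept of 20 (73.7% against 21.1% of all genes). One was lower, 4 were not called and the median difference was 0.88. ATF5, a transcription factor of the response, had 45.5 and 21.5 FPKM in esiFLI1, 213 and 129 in esiUSP9X and 213 and 128 in esiGFP. TRIB3, a pseudokinase that damps the response, had 9.38 and 4.73 in esiFLI1, 43.8 and 22.7 in esiUSP9X and 51.5 and 23.1 in esiGFP. ASNS, asparagine synthetase, had 29.7 and 33 in esiFLI1, 117 and 131 in esiUSP9X and 115 and 140.3 in esiGFP. In all 3 genes the esiFLI1 libraries were low, and the esiUSP9X and esiGFP libraries overlapped. The differences were 2.37 ± 0.11 (SE), 2.08 ± 0.11 (SE) and 1.95 ± 0.10 (SE). DDIT3, the factor CHOP, differed by 1.33 ± 0.10 (SE) and ATF4 itself by 0.86. NUPR1, a stress cofactor, was the lower member, at -2.01. Without the block 3 were higher, ASNS and DDIT3 among them (adjusted p 0.0147 and 0.0258), while ATF5 (0.0811) and TRIB3 (0.144) missed the threshold.

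The ATF4 with C/EBP letters TGATGCAA were found in 1 of 16 promoters of this list in the table and in 0.464% of the kept genes' promoters. That 1 was CHAC1, an enzyme that degrades glutathione, which differed by 1.67. Its stretch at chr15:40953251-40953279 (plus strand, RefSeq, GRCh38.p14) is shown with the reverse complement of the motif in capitals.
CHAC1: ctcccctgccgTTGCATCActcctgccag
No match says only that these letters are not in the window of 300 bases.

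Serine synthesis and one-carbon enzymes had 7 higher, none lower and 7 not called of 14 kept of 15 (median 0.43). PSAT1, the transaminase of serine synthesis, had 72.6 and 75 FPKM in esiFLI1, 195 and 194 in esiUSP9X and 209 and 223 in esiGFP, and MTHFD2, a mitochondrial folate enzyme, had 72.7 and 90.3, 156 and 162 and 166 and 188. SHMT2 differed by 0.84 and PSPH by 0.83. Amino acid transporters had 11 higher, 1 lower and 7 not called of 19 kept of 20 (median 0.39). SLC7A5, the large neutral amino acid carrier, had 43.1 and 18.1 in esiFLI1, 146 and 78.4 in esiUSP9X and 138 and 71.9 in esiGFP, and its partner chain SLC3A2 had 65.5 and 27.6, 167 and 84.9 and 149 and 92.4. The lower carrier was SLC38A2, at -0.57. Aminoacyl-tRNA synthetases, which load amino acids onto tRNA, had 16 higher and none lower of 20 (median 0.61). YARS had 58.1 and 42.5 in esiFLI1, 130.0 and 106 in esiUSP9X and 108 and 98.9 in esiGFP, MARS differed by 1.14, SARS by 1.0, GARS by 0.99 and AARS by 0.74. In the order given, 50%, 57.9% and 80% of these 3 lists were higher, beside 21.1% of all genes. PSAT1 was the single gene of these 3 lists called without the block (limma adjusted p = 0.0189).

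Protein-folding genes stood on both sides. Cytosolic heat shock proteins and their partners were higher for 11 of 15 (73.3% against 21.1% of all genes, median 0.58). HSP90AB1 had 803 and 797 FPKM in esiFLI1, 1272 and 1349 in esiUSP9X and 1117 and 1342 in esiGFP. HSPD1, the mitochondrial chaperonin on the same list, had 592 and 657, 1044 and 1004 and 945 and 1084, and HSPH1 differed by 0.69. The 2 lower members were small heat shock proteins. CRYAB, alpha-B crystallin, had 47.6 and 31.1 in esiFLI1, 1.77 and 1.1 in esiUSP9X and 1.66 and 0.91 in esiGFP, a difference of -4.03 ± 0.11 (SE), and HSPB8 differed by -0.89 at levels near or under 1 FPKM. Chaperones and degradation factors of the endoplasmic reticulum had 6 lower and 2 higher of 18 (shares of 33.3% beside 21.8% and 11.1% beside 21.1% of all genes, median -0.15). PDIA3, a disulfide isomerase, had 308 and 338 in esiFLI1, 205 and 225 in esiUSP9X and 231 and 264 in esiGFP, HSP90B1 differed by -0.55, and the higher members were SDF2L1 at 0.62 and MANF at 0.46. HSPA5, the main chaperone of that compartment, differed by 0.10 and was not called. Without the block only CRYAB and HSPB8 of both lists were called.

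Targets of NRF2, the factor of the oxidative stress response, had 2 higher and 3 lower of 13 kept of 14, shares of 15.4% and 23.1% that are near or below the 21.1% and 21.8% of all genes. Beside NQO1, FTL, the ferritin light chain, differed by -0.41 and HMOX1, heme oxygenase, by -0.52, while ME1, malic enzyme, differed by 0.48 and GSR, glutathione reductase, by 0.37. Of the small list around TXNIP, MLX, a partner of the glucose-sensing Mondo factors, had 7.0 and 4.9 FPKM in esiFLI1 and 12.7 and 9.38 in esiUSP9X, and ARRDC4, an arrestin-domain relative of TXNIP, had 0.814 and 0.948 and 1.58 and 2.19. The other 4 kept of that list were not called. Without the block FTL, HMOX1, ME1, GSR, MLX and ARRDC4 were not called (adjusted p 0.846, 0.663, 0.47, 0.509, 0.211 and 0.185).

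Metabolic genes were more often higher than lower. Glycolysis and hypoxia genes had 17 higher and 3 lower of 27 kept of 28 (median 0.45). HK2, a hexokinase, had 6.12 and 5.04 FPKM in esiFLI1, 18.2 and 15.6 in esiUSP9X and 15.7 and 14.7 in esiGFP, and VEGFA, the vascular growth factor, had 14.2 and 11.7, 34 and 28 and 30.5 and 26.4. The 3 lower members were ADM, the peptide adrenomedullin, at 40.6 and 30.8 in esiFLI1 and 4.14 and 3.17 in esiUSP9X, NDRG1 at -0.58 and PFKFB3 at -0.68. Cholesterol synthesis genes had 13 higher and none lower of 24 (median 0.31), among them HSD17B7 at 0.98 and INSIG1, a sensor of sterol supply, at 0.61. Nuclear-encoded respiratory chain subunits had 18 higher and none lower of 33 (median 0.33). CYC1 had 154 and 62.2 in esiFLI1 and 253 and 119 in esiUSP9X, SDHB had 98.1 and 80.7 and 159 and 138, and UQCRC2 differed by 0.63. For CYC1 the replicate 1 library of esiFLI1 lay above the replicate 2 library of esiUSP9X. Shares higher in the glycolysis, cholesterol and respiratory lists were 63.0%, 54.2% and 54.5%, beside 21.1% of all genes. Without the block HK2 and ADM were the members of these lists that were called.

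The ubiquitin system showed small differences beyond USP9X itself. Of 44 kept USP deubiquitinases of 48, USP9X included, 5 were higher and 4 lower, with a median of 0.05. USP9X was 1 of the 4 lower genes. The shares of 11.4% and 9.09% lie below those of all genes (21.1% and 21.8%). USP7 had 47 and 57.1 FPKM in esiFLI1, 70.7 and 82.1 in esiUSP9X and 60.3 and 83.2 in esiGFP, USP10 differed by 0.38 and USP18 by 0.49. CYLD, a deubiquitinase of inflammatory signalling, had 4.21 and 5.55 in esiFLI1 and 2.16 and 2.74 in esiUSP9X. Transcripts of proteins reported as USP9X substrates, whose protein is what USP9X acts on, had 6 higher and 6 lower of 25 kept of 28 (median 0.02), shares of 24% and 24% that are near those of all genes. AMOT, which holds YAP at cell junctions, had 11.9 and 9.3 in esiFLI1, 4.5 and 3.31 in esiUSP9X and 4.27 and 2.86 in esiGFP, and MAP3K5 differed by -0.68. MCL1, an anti-death protein on that list, was not called. Proteasome subunits had 11 higher and none lower of 31 (35.5% higher beside 21.1% of all genes, median 0.23). The count was 7 after rescaling without MIR6723, 8 after quantile normalization and 11 after median scaling. PSMD14 had 129 and 146 FPKM in esiFLI1 and 186 and 214 in esiUSP9X. Of these 3 lists the fit without the block called 1 member, USP9X.

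Members of the BCL2 family, which set the threshold for apoptosis, had 3 higher and 4 lower of 14 kept of 18, shares of 21.4% and 28.6% beside 21.1% and 21.8% of all genes, which are near, so that the values are those of single genes. BMF, a death-promoting BH3-only protein, had 29.3 and 18.7 FPKM in esiFLI1, 8.05 and 5.14 in esiUSP9X and 7.48 and 4.0 in esiGFP, a difference of -1.71 ± 0.11 (SE). BCL2L11, the BH3-only protein BIM, had 5.8 and 5.47 in esiFLI1, 2.49 and 2.44 in esiUSP9X and 2.12 and 2.6 in esiGFP, and BOK differed by -1.04. BMF and BCL2L11 stood highest in esiFLI1. PMAIP1, the BH3-only protein NOXA, went the other way, at 0.73, as did the protective BCL2L2, at 0.67. None was called without the block (limma adjusted p of 0.106 for BMF and 0.0593 for BCL2L11).

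DNA replication genes were higher for 21 of 37 (56.8% against 21.1% of all genes) and lower for 1 (median 0.31). After rescaling without MIR6723, 11 were higher. E2F1, the factor that starts S phase genes, had 28.9 and 15.2 FPKM in esiFLI1, 42.3 and 26.6 in esiUSP9X and 49.6 and 28.6 in esiGFP, and GINS1, a part of the replicative helicase, had 22.6 and 27.7, 37.1 and 37.8 and 36.4 and 42.5. E2F1 overlapped between the knockdowns across replicates and GINS1 did not. The lower member was CCNE2, a G1 cyclin, at -0.61. G2 and mitosis genes had 9 higher and 4 lower of 34 (median 0.09), shares of 26.5% and 11.8% beside 21.1% and 21.8% of all genes. After that rescaling 4 were higher and 6 lower. PLK1, a mitotic kinase, differed by 0.55 and KIF20A, a mitotic kinesin, by -0.54. Of 14 kept G1 cyclins, kinases and inhibitors of 17, 4 were higher and 5 lower, shares of 28.6% and 35.7% beside 21.1% and 21.8% of all genes. CCND1 and CCND3 (0.59) were among the higher ones. CDK6, a lower member, had 8.47 and 11.9 FPKM in esiFLI1, 3.11 and 3.8 in esiUSP9X and 2.57 and 2.86 in esiGFP. None of these lists had a call without the block.

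Interferon response genes were lower in esiUSP9X for 17 and higher for 1 of 27 kept of 33 (median -0.56). Of all kept genes 21.8% were lower, against 63.0% of this list. IRF1, a factor that interferon induces, had 5.46 and 3.86 FPKM in esiFLI1, 1.02 and 0.985 in esiUSP9X and 1.62 and 1.06 in esiGFP, and IRF9, a subunit of the factor that interferon activates, had 10.3 and 6.62, 3.16 and 2.69 and 4.44 and 3.11. PSMB9, an immunoproteasome subunit, had 5.45 and 4.05 in esiFLI1, 1.27 and 0.453 in esiUSP9X and 1.94 and 1.25 in esiGFP. The higher member was IRF3, at 0.44. MHC class I antigen presentation genes had 6 lower (60% against 21.8% of all genes) and none higher of 10 kept of 12 (median -0.43). B2M, the light chain of MHC class I, had 1891 and 1670.2 in esiFLI1, 1545 and 1278 in esiUSP9X and 1889.9 and 1708 in esiGFP. For B2M the esiGFP libraries lay with esiFLI1. IFITM1 and IFITM2, near-identical neighbours whose reads may be shared, differed by -1.44 and -1.64. IRF1 alone of both lists was called without the block (adjusted p = 0.037).

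Lysosomal enzymes and membrane proteins had 16 lower and none higher of 27 kept of 29 (59.3% lower against 21.8% of all genes, median -0.65). LAMP2, a main membrane protein of the lysosome, had 58 and 77.4 FPKM in esiFLI1, 33.5 and 40.9 in esiUSP9X and 39.6 and 44.8 in esiGFP. CTSB, a cathepsin protease, had 102 and 70.6, 50.1 and 38.3 and 57.6 and 41.5, and CTSF differed by -1.59. GLB1, the lysosomal beta-galactosidase, had 45 and 33.1 in esiFLI1, 23.1 and 18.5 in esiUSP9X and 25.8 and 19.7 in esiGFP. The esiUSP9X libraries of LAMP2, CTSB and GLB1 lay below the esiFLI1 libraries. TFEB, the factor that drives lysosome genes, differed by -0.05 and was not called, and no member was called without the block.

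Cytosolic ribosomal proteins had 29 higher and none lower of 72 kept of 73 (40.3% higher beside 21.1% of all genes, median 0.31). That count, however, was 41 after median scaling, 15 after rescaling without MIR6723 and 10 after quantile normalization. RPL36 had 1031 and 724 FPKM in esiFLI1, 1555 and 1334 in esiUSP9X and 1676 and 1275 in esiGFP, and RPS16 differed by 0.60. Processed copies of these genes exist across the genome, and how shared reads were assigned is not given in the sources used here. Splicing factors had 11 higher and none lower of 30 (36.7% higher beside 21.1% of all genes, median 0.25), with HNRNPL at 0.69 and SRSF4 at 0.63. Their count was 9 after rescaling without MIR6723, 8 after quantile normalization and 13 after median scaling. No member of these 2 lists was called without the block.

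Some of the most abundant transcripts differed as well. On the higher side HSPA8, the constitutive cytosolic chaperone, had 971 and 987 FPKM in esiFLI1, 1528 and 1505 in esiUSP9X and 1465 and 1772 in esiGFP. YBX1, an RNA-binding protein, had 1178 and 1199, 1503 and 1604 and 1351 and 1580.2. On the lower side TMSB4X, the actin-sequestering thymosin, had 3432 and 2008 FPKM in esiFLI1, 1678 and 1139 in esiUSP9X and 1615 and 1188 in esiGFP. VIM, the intermediate filament of mesenchymal cells, had 1824 and 1463, 970.5 and 803 and 1198 and 985. ANXA2, a membrane-binding annexin, had 1325 and 1264, 690.4 and 656 and 799 and 819, and MYL6, a myosin light chain, had 1559.6 and 1419, 798 and 812 and 976 and 1011. In each of these 6 genes the knockdowns did not overlap, and ANXA2 was the one called without the block (adjusted p = 0.0459).

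Further genes with large differences lay outside the lists. On the lower side L1CAM, a neural adhesion molecule, had 29.9 and 14.7 FPKM in esiFLI1 and 0.171 and 0.123 in esiUSP9X (difference -4.27 ± 0.19 (SE)). TDO2, an enzyme of tryptophan breakdown, had 20.1 and 33.4 in esiFLI1 and 0.473 and 1.41 in esiUSP9X. PTX3, a secreted pattern-recognition protein, had 36.1 and 31.6 in esiFLI1, 1.9 and 1.27 in esiUSP9X and 3.9 and 2.47 in esiGFP. HTRA1, a secreted protease, had 19 and 10.9 in esiFLI1 and 0.115 and 0.197 in esiUSP9X. L1CAM and HTRA1 entered only through esiFLI1, and the calls of TDO2 and PTX3 stood without the block (adjusted p 0.0129 and 0.00755). On the higher side AMER2, a regulator of Wnt signalling, had 2.73 and 3.33 in esiFLI1, 12.3 and 14.4 in esiUSP9X and 7.68 and 11.1 in esiGFP, and CLSTN2, a synaptic adhesion protein, had 2.79 and 2.1, 11.7 and 9.8 and 7.47 and 8.45. SCNN1G, a subunit of the epithelial sodium channel, had 0.653 and 0.386, 4.91 and 3.72 and 1.78 and 2.94, and VMO1 had 15.2 and 4.17, 47.3 and 23.8 and 68.9 and 28.7. AMER2 and CLSTN2 kept their call without the block (adjusted p 0.03 and 0.0218), VMO1 did not (0.285), and SCNN1G entered only through esiUSP9X.

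The called genes differed from the rest in more than function. Genes higher in esiUSP9X had a median GC content of 50.1% and a median length of the longest annotated transcript of 3075 bases, against 47.1% and 4034.5 bases for the lower genes and 47.7% and 3660 bases for all kept genes with an annotation match. Their median levels over the knockdown libraries were 19.5 FPKM for the higher and 8.15 FPKM for the lower genes. A fit corrected for GC content called 3149 genes higher and 2958 lower of the 11330 with a GC value, and the part of length was not tested. In RNA from whole cultures, fewer cells of one state and less RNA per cell cannot be told apart.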

How the data were processed

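Libraries of A673 cells were prepared from 2 μg of total RNA with a stranded kit after ribosomal RNA removal and read as 75-base single ends, per the labels' protocols. The authors deposited 1 table of FPKM values per gene symbol and library. Tools and builds are listed in the submitters' processing notes as TopHat, Cufflinks, Cuffdiff, hg19 and GRCh37. Tool versions, annotation and strand setting were not given in the sources used here. Overlapping genes, antisense partners and near-identical copies are therefore uncertain.

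Here log2(FPKM + 1) was fitted with limma 3.58.1 (R 4.3.3; lmFit, eBayes with a trend) to all 6 libraries, with group and replicate number as terms, which leaves 2 residual degrees of freedom; esiUSP9X minus esiFLI1 was tested two-sided, with Benjamini-Hochberg adjustment over 12008 genes and calls at an adjusted p under 0.05. This scale understates differences of low genes. A test between 2 and 2 libraries alone could not go below an exact permutation p of 0.333. The labels share replicate numbers but name no shared day, and the pairing comes from the rule of the comparison; deviations of same-numbered libraries correlated at 0.731 (esiGFP and esiFLI1), 0.683 (esiGFP and esiUSP9X) and 0.720 (esiFLI1 and esiUSP9X) over the kept genes. Fits were also run on simulated data with a replicate shift built in and a common spread, which cannot show whether same-numbered libraries are paired. No counts were given, and the FPKM steps gave no whole reads, so no interval on depth was made.

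Named genes were the targets, the 15 largest differences per direction without overlap, the 6 most abundant called genes per direction and up to 5 called members per list with the smallest adjusted p, leaving out small, antisense and uncharacterised RNAs. Some genes that this rule selects are not reported here. List members that went against their list, and regulators named as not called, were added after their values were seen. The comparison, its members, the 39 lists (978 entries, from general knowledge, some genes in several) and the rule were chosen with earlier results of these data known.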

Additional observations from a re-analysis of the deposited data

How the results depend on the processing

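The replicate block decided most calls. With paired libraries 2536 genes were higher and 2615 lower, and without the block 43 and 323 (at least 2-fold: 43 higher and 303 lower). With only the 4 knockdown libraries and no block the limma fit called 0 higher and 55 lower (1638 genes at an unadjusted p under 0.05), all 55 of them 2-fold or more; the same 4 libraries with it gave 2633 and 2691. Leaving out 1 library at a time gave 1227 to 2643 higher genes and 1732 to 2696 lower genes, and 166 to 227 and 623 to 727 at 2-fold. The higher count fell by over 1.5 times without esiUSP9X replicate 1 (1415), esiUSP9X replicate 2 (1355) or esiFLI1 replicate 2 (1227), and the lower count without esiFLI1 replicate 2 (1732). A group left with 1 library is assumed to vary like the others.

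At a pseudocount of 0.1 there were 293 genes at least 2-fold higher, and at a pseudocount of 5 there were 64 higher and 250 lower. A filter of 5 FPKM left 1727 lower genes, 388 of them at least 2-fold, since fewer low genes were tested. The other alternatives (no filter, no genes at 0, 3 other scalings, no trend, and the replicate block with GC correction) kept all 4 counts within 1.5 times. None of the genes chosen by the naming rule (184 to 202 of them tested, depending on the alternative) changed sign. For the changed counts without the block, without a library or at another pseudocount, the cause was not tested.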

Other observations

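The 15 genes left out for being listed at 0 in both libraries of a knockdown hold large values elsewhere. FN1 was listed at 890 and 900 FPKM in esiUSP9X and at 0 in the other 4 libraries. TNFSF18 had 10.5 and 11.6 FPKM in esiFLI1 and was listed at 0 in esiUSP9X and esiGFP, and BBOX1 had 1.51 and 2.05 FPKM in esiFLI1 and was listed at 0 in esiUSP9X. Most of the others were small nucleolar or micro RNAs. EEF1A1, a translation factor among the most abundant transcripts, had 2928 and 3159.9 FPKM in esiFLI1 but a listed 0 in each esiGFP library. Small RNAs made up 10 of the 165 genes at least 2-fold higher and 6 of the 639 at least 2-fold lower.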
